A study of Mus musculus with 18 samples.

Results

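The values described here compared untreated tumours taken after cryo-thermal treatment with untreated tumours taken after cryoablation, both without antibody. The members were chosen by treatment label and comprised 6 of the 18 tumours in the expression table, 3 after cryo-thermal treatment and 3 after cryoablation. Cryoablation destroys a lesion by freezing it, and cryo-thermal treatment follows freezing with heating. In every group of the series the label calls the tumour that was sequenced untreated and resected after the ablation. This is read here as ablation of another lesion in the same mouse, which the labels do not state. Both groups thus followed an ablation, and neither of these groups received anti-PD-1, an antibody against an inhibitory receptor of T cells. The other 12 tumours were 3 after radiofrequency ablation, which heats a lesion, and 3 after each of the 3 ablations combined with anti-PD-1. The tumour line, the mouse strain, age and sex, and the time between ablation and resection are not given in the sources used here, and no tumours from mice without any ablation were analysed here. Separate mice or separate ablations are stated for none of the 6 tumours, so the p-values below measure only the spread between these samples.

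Interferon-gamma, the cytokine of activated T and NK cells, switches on genes through a short DNA element called GAS. Type I interferons act through the interferon-stimulated response element, or ISRE, which is bound by a complex that includes IRF9. Genes under these elements include GTPases that attack the vacuoles of intracellular microbes, antiviral proteins, and the machinery that cuts proteins into peptides and shows them on MHC molecules. In tumours the same genes are widely read as a footprint of an ongoing T cell response. Misfolded protein is answered by other genes, the heat shock chaperones, and amino acid shortage or endoplasmic reticulum stress by the targets of the transcription factor ATF4.

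The stretches below lie just before the transcription start of genes that rose after cryo-thermal treatment, and they are shown because they carry the elements through which these gene groups are known to be switched on. They were read from RefSeq promoters of the mouse build GRCm38.p6, 5′ to 3′ on the strand of the gene, with matches in capitals. The letters searched on both strands were GAAA, any 2 bases and GAAA again for ISRE, TTCNNNGAA for GAS, TGATGNAA for the element bound by ATF4 with a C/EBP partner, and GAA, any 2 bases, TTC, any 2 bases and GAA for the heat shock element. Of 32851 RefSeq promoters, each from 250 bases before to 50 after the start, 3.44% held the ISRE letters, 8.3% the GAS letters, 0.6% the heat shock letters and 3.97% the ATF4 letters.
Tgtp1, chr11:48992289-48992348, minus strand: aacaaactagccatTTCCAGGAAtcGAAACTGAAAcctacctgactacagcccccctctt
Igtp, chr11:58199496-58199555, plus strand: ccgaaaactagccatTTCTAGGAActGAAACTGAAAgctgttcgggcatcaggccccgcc
Irgm2, chr11:58214888-58214947, plus strand: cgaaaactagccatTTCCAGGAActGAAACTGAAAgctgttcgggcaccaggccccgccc
Gbp3, chr3:142559974-142560033, plus strand: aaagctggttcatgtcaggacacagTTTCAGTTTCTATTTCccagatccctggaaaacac
Gbp2, chr3:142620579-142620638, plus strand: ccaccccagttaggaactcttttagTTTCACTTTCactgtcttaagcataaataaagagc
Isg15, chr4:156200862-156200921, minus strand: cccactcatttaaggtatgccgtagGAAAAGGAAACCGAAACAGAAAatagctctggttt
Oas1a, chr5:120907526-120907585, minus strand: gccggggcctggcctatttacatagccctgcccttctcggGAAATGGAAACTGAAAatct
H2-T23, chr17:36032791-36032850, minus strand: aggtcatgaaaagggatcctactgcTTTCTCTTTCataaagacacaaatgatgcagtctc
Hspe1, chr1:55088035-55088094, plus strand: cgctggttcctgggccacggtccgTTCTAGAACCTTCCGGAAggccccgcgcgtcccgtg
Chac1, chr2:119351023-119351082, plus strand: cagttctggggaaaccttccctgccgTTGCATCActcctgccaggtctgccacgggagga
Asns, chr6:7693210-7693269, minus strand: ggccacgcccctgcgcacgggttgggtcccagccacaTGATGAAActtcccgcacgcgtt
Atf3, chr1:191183410-191183469, minus strand: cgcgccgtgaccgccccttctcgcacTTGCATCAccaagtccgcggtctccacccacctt
In the 3 immunity-related GTPase promoters a GAS match stood directly before an ISRE match, at 88 and 77 bases before the start of Tgtp1, 45 and 34 bases before that of Igtp, and 75 and 64 bases before that of Irgm2. The Isg15 stretch held 3 ISRE matches that overlap by part of their letters, and the Oas1a and Gbp3 stretches held 2 each. A match describes the letters only. RefSeq promoters were matched by symbol for 9938 of the 12587 genes tested, and no share over the genes that changed is given because that is below the coverage set for such a count.

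All 18 columns were of similar depth, with relative depth between 0.983 and 1.02 as read from the smallest steps of the values. The values are FPKM, fragment counts divided by transcript length and library size, so they are scaled for length and depth. Changes are differences of mean log2(FPKM + 1), and since 1 is added to every value a change of a lowly expressed gene is understated. The tumours expressed Vim, the intermediate filament of mesenchymal cells, at 2177, 2552 and 2323 FPKM after cryoablation and 2436, 2495 and 2433 FPKM after cryo-thermal treatment. Summed over 6 epithelial markers the level was 2.553 to 4.056 FPKM over the 6 tumours, and that of 6 melanocyte markers was at most 0.2619 FPKM with Tyr and Mlana at 0 in all 6. Here and below, values in a list are for tumours 1, 2 and 3 of a group, in that order.

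Over all genes, Pearson's r between tumours of the cryoablation group was 0.9911 to 0.9946, between tumours of the cryo-thermal group 0.9819 to 0.9885, and between the groups 0.9549 to 0.984, as a description of the 6 columns. The first principal component of the 6 tumours took 67.5% of their variance and placed the cryoablation tumours at -25.14, -18.1 and -19.77 and the cryo-thermal tumours at 35.19, 20.63 and 7.19. Cryo-thermal tumour 1 thus lay farthest from the cryoablation group and cryo-thermal tumour 3 nearest to it.

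After cryo-thermal treatment 1008 of 12587 genes tested were higher and 876 were lower than after cryoablation, at a Benjamini-Hochberg adjusted p under 0.05 in limma's moderated test. These are 8.01% and 6.96% of the genes tested, or 15.0% in either direction, and each list below is set beside these shares. The lists and their members were chosen with earlier results of these data known. Their counts therefore describe these tumours and are not independent support. More of the rises were large, with 251 genes over 2-fold higher against 39 over 2-fold lower on the log2(FPKM + 1) scale. The median change of all genes tested was -0.009 log2. The counts over lists below cover the members with a mean of 0.5 FPKM or more over the 18 tumours. Among the genes that passed, the groups did not overlap for 995 of the higher and 838 of the lower genes. Over all genes tested the groups did not overlap in 35.5%, 17.7% higher and 17.8% lower. Passing the test by itself favours groups that are apart, and the largest rises and falls were named only where they were apart. For genes that passed, here and below, the lack of overlap is thus a description and not separate support. Cryo-thermal tumour 1 was the highest of its group for 662 of the 1008 higher genes, or 65.7%. Cryo-thermal tumour 3 was the lowest of its group for 750 of the higher genes, and the highest of its group for 697 of the 876 lower genes. The mean of the radiofrequency tumours lay between the means of these groups for 953 of the higher and 819 of the lower genes. These genes were selected because the cryo-thermal and cryoablation means differ, which by itself favours a radiofrequency mean between them. The share over all genes tested is not given, so these counts do not show that the radiofrequency tumours were intermediate.

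The count of genes depended on single tumours. Without cryo-thermal tumour 1 it was 460 (296 higher and 164 lower), without cryo-thermal tumour 2 it was 698, and without cryo-thermal tumour 3 it was 2681. Without cryoablation tumour 1 it was 538, without tumour 3 it was 952 and without tumour 2 it was 1422. Red cell transcripts moved with the groups in all 6 tumours, as described below, and with the mean log2 level of 5 red cell markers added to the model no gene passed, while 1572 passed at an unadjusted p under 0.05. In that model the median change of the guanylate-binding proteins was 1.41 log2 and that of the immunity-related GTPases 1.82 log2, compared with 2.52 and 2.61 without it. The summed red cell level did not overlap between the groups, so in this comparison blood and treatment cannot be told apart.

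**Figure D1:**
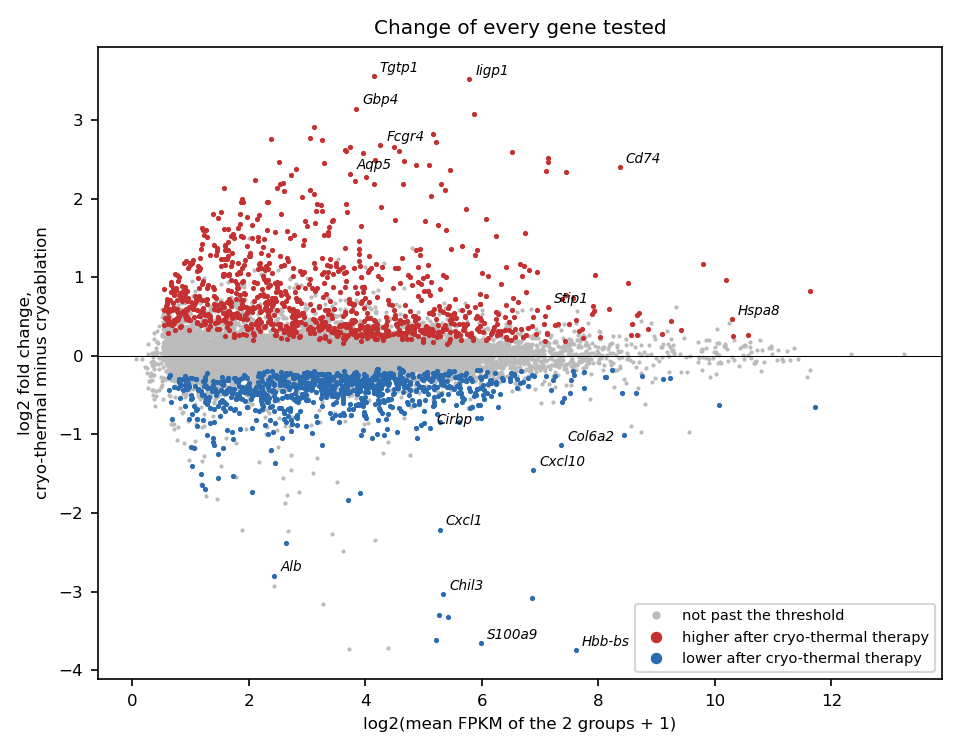
Change after cryo-thermal treatment relative to cryoablation against the mean level, for the 12587 genes tested; the vertical axis is the difference of mean log2(FPKM + 1) of 3 against 3 tumours and the horizontal axis is the log2 of 1 plus the mean FPKM of these 6. Coloured points are the 1008 higher and 876 lower genes at an adjusted p under 0.05, of which 251 were over 2-fold higher and 39 over 2-fold lower.

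Interferon-inducible GTPases were among the genes with the largest rises. These enzymes are induced by interferon-gamma and break open vacuoles that hold bacteria or parasites. All 9 guanylate-binding proteins tested rose, with a median change of 2.52 log2, and 10 of 11 immunity-related GTPases rose, with a median of 2.61 log2. Tgtp1, an immunity-related GTPase whose promoter is printed above, had 0.697, 2.41 and 2.23 FPKM after cryoablation and 42.7, 30.1 and 21.7 FPKM after cryo-thermal treatment. The groups were far apart, with a rise of 3.56 ± 0.73 log2 (SE, n = 3 and 3, adjusted p = 0.00804), the largest among the genes named by rule. Iigp1, which loads onto the parasite vacuole, went from 4.12, 9.74 and 9.78 to 142, 86.0 and 71.7 FPKM, a rise of 3.52 ± 0.68 log2 (adjusted p = 0.00633). Igtp, one of the regulators that hold the other GTPases inactive, went from 6.66, 15.4 and 13.3 to 133, 89.7 and 87.5 FPKM, a rise of 3.07 ± 0.58 log2 (adjusted p = 0.00597). In each of these genes the lowest cryo-thermal tumour was several times above the highest cryoablation tumour.

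Irgm2, another such regulator, had 3.94, 6.81 and 6.35 FPKM after cryoablation and 50.7, 31.3 and 37.4 FPKM after cryo-thermal treatment, a rise of 2.61 log2 (adjusted p = 0.00561). Among the guanylate-binding proteins, Gbp4 went from 0.952, 2.52 and 2.08 to 36.1, 20.3 and 17.6 FPKM, a rise of 3.15 ± 0.56 log2 (adjusted p = 0.00555). Gbp2, the most abundant member of this family among those named here, had 27.7, 46.2 and 49.0 FPKM after cryoablation and 298, 215 and 198 FPKM after cryo-thermal treatment. Its groups did not overlap either, although its rise of 2.52 log2 (adjusted p = 0.015) was no longer called without cryoablation tumour 1 or cryo-thermal tumour 1 (adjusted p = 0.0704 and 0.0727). Gbp3 rose by 2.83 log2 (adjusted p = 0.00718), Gbp5 by 2.58 log2 (adjusted p = 0.00601), Gbp6 by 2.60 log2 (adjusted p = 0.00545) and Tgtp2 by 2.66 log2 (adjusted p = 0.00829). Tgtp1 and Tgtp2 are near-identical copies, and guanylate-binding proteins share long stretches, so reads may have been split between them in a way that is not known. Without cryo-thermal tumour 1 the number of guanylate-binding proteins that rose was 6 of 9.

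**Figure D2:**
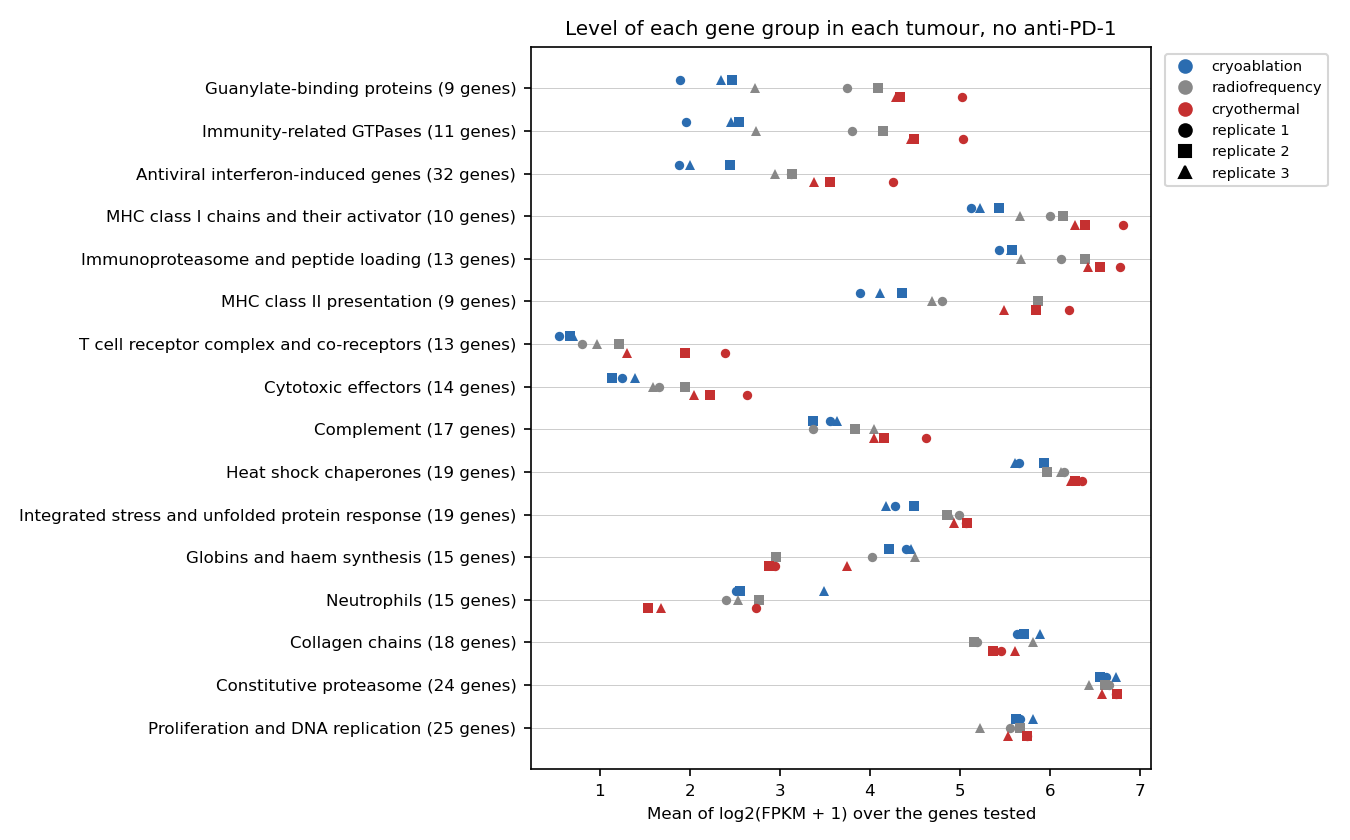
Mean of log2(FPKM + 1) over the tested genes of each list in each of the 9 tumours without anti-PD-1; colours are the ablation, shapes the tumour number, and radiofrequency tumours are drawn for reference. In the interferon, MHC and T cell lists every cryo-thermal tumour lies above every cryoablation tumour and cryo-thermal tumour 1 is the highest, whereas the constitutive proteasome and proliferation lists overlap.

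Antiviral genes rose together. In this list, whose members block viral translation and replication or sense viral nucleic acid, 31 of 32 genes tested rose, with a median change of 1.73 log2, and without cryo-thermal tumour 1 the count was 24. Isg15, a ubiquitin-like protein attached to other proteins in infected cells, had 5.53, 11.9 and 6.67 FPKM after cryoablation and 72.7, 37.9 and 33.8 FPKM after cryo-thermal treatment, a rise of 2.42 ± 0.42 log2 (adjusted p = 0.00491). Usp18, the protease that removes Isg15, went from 0.368, 2.41 and 0.701 to 14.5, 6.27 and 5.86 FPKM, a rise of 2.20 log2 (adjusted p = 0.00555). For both, cryoablation tumour 2 was the highest of its group and cryo-thermal tumour 1 the highest of all. Oas1a, which makes the second messenger that activates RNase L, had 1.25, 2.58 and 1.83 FPKM after cryoablation and 24.4, 13.4 and 9.19 FPKM after cryo-thermal treatment, a rise of 2.45 log2 (adjusted p = 0.00433). Ifit3, which helps capture foreign RNA, rose by 2.62 log2 (adjusted p = 0.00491), and Ifit3b, its near-identical copy, by 1.99 log2 (adjusted p = 0.0041). Ifi44 rose by 2.77 log2 (adjusted p = 0.00555) and Zbp1, a sensor of Z-form nucleic acid that can trigger necroptosis, by 2.65 log2 (adjusted p = 0.00454). The cryo-thermal tumours were above the cryoablation tumours in all of these genes without overlap.

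Of the p200 family of nuclear DNA sensors, 7 of 8 genes tested rose, with a median of 1.39 log2. Ifi205 had 2.65, 2.74 and 3.21 FPKM after cryoablation and 16.1, 11.8 and 11.0 FPKM after cryo-thermal treatment, a rise of 1.84 log2 (adjusted p = 0.00425). Ifi204, a sensor of DNA in macrophages, went from 8.66, 9.88 and 8.81 to 52.4, 28.9 and 22.4 FPKM (adjusted p = 0.00491). Members of this family are close copies of each other, so how their shared reads were divided is uncertain.

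The regulators of these genes changed in part. Of 5 interferon and interferon receptor genes tested 1 rose, and it was Ifng itself, so no receptor passed the test. Ifng had 0.108, 0 and 0.0436 FPKM after cryoablation and 2.19, 1.18 and 0.455 FPKM after cryo-thermal treatment, a rise of 1.04 log2 (adjusted p = 0.0165). Its values were low throughout, the groups did not overlap, and the rise was no longer called without cryoablation tumour 1 or cryo-thermal tumour 1 or 2 (adjusted p = 0.0543 to 0.0916). Of 7 interferon regulatory factors 5 rose, with a median of 1.20 log2. Without cryoablation tumour 1 or cryo-thermal tumour 1 or 2 the count was 3.

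Irf7, which amplifies the type I interferon response, had 2.85, 6.68 and 3.15 FPKM after cryoablation and 48.1, 22.6 and 18.1 FPKM after cryo-thermal treatment, a rise of 2.50 ± 0.41 log2 (adjusted p = 0.00451). Irf1, an early interferon-gamma target that drives MHC class I genes, went from 29.8, 36.9 and 32.7 to 93.5, 79.7 and 74.1 FPKM, a rise of 1.29 log2 (adjusted p = 0.0169) that was no longer called without cryoablation tumour 1 or cryo-thermal tumour 1 or 2 (adjusted p = 0.0537 to 0.078). Irf8, a factor of dendritic cells and macrophages, rose by 1.53 log2 (adjusted p = 0.00491) and Irf9, a DNA-binding subunit of the complex on ISRE, by 1.20 log2 (adjusted p = 0.00451). The largest of these changes was that of Irf7, and cryo-thermal tumour 1 was the highest of the 6 for each of the 4 factors.

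The MHC class I pathway was higher at each step after cryo-thermal treatment. This pathway cuts cytosolic proteins in the proteasome, pumps the peptides into the endoplasmic reticulum and shows them to CD8 T cells. All 10 class I chains and activators tested rose, with a median of 1.22 log2, and 12 of 13 genes of the immunoproteasome and peptide loading rose, with a median of 1.02 log2. Of 24 subunits of the constitutive proteasome none rose or fell, with a median of 0.05 log2. Psmb9, an immunoproteasome subunit, had 10.1, 15.9 and 13.3 FPKM after cryoablation and 92.7, 68.1 and 55.5 FPKM after cryo-thermal treatment, a rise of 2.37 ± 0.48 log2 (adjusted p = 0.00783). H2-T23, a non-classical class I chain, went from 11.4, 16.3 and 14.8 to 91.4, 57.9 and 49.7 FPKM, a rise of 2.12 log2 (adjusted p = 0.00491). Nlrc5, the activator of class I transcription, went from 8.09, 9.98 and 8.31 to 27.6, 21.3 and 19.5 FPKM, a rise of 1.27 log2 (adjusted p = 0.00804). None of these 3 genes overlapped between the groups.

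The classical chains were abundant in every tumour. H2-K1 had 472, 653 and 508 FPKM after cryoablation and 1431, 1206 and 1045 FPKM after cryo-thermal treatment, a rise of 1.17 log2 (adjusted p = 0.0103). B2m, the light chain of class I, went from 2183, 2534 and 2179 to 4819, 3998 and 3434 FPKM, a rise of 0.82 log2 (adjusted p = 0.0118). Tap1, a subunit of the peptide pump, rose by 1.87 log2 (adjusted p = 0.0104). These calls were lost without cryoablation tumour 1 or cryo-thermal tumour 1, with adjusted p = 0.0532 and 0.0573 for H2-K1, 0.0554 and 0.0706 for B2m, and 0.0554 and 0.0585 for Tap1. Without either of these tumours 4 of the 10 class I genes passed, and without cryo-thermal tumour 1 the immunoproteasome and peptide loading list had 2 of 13 genes past the test, and without cryoablation tumour 1 it had 3. The class I chains are close copies of each other, and how reads were divided among them is not known.

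MHC class II presentation was higher as well: 9 of the 9 genes tested rose, with a median of 1.66 log2, and without cryo-thermal tumour 1 the count was 6. Class II molecules show peptides from engulfed material to CD4 T cells and are made mainly by professional antigen-presenting cells, or by other cells under interferon-gamma. Cd74, the invariant chain that guards the class II groove, had 77.3, 138 and 95.7 FPKM after cryoablation and 726, 541 and 393 FPKM after cryo-thermal treatment, a rise of 2.40 ± 0.45 log2 (adjusted p = 0.00569). H2-Eb1, a class II beta chain, went from 19.1, 34.2 and 21.8 to 204, 155 and 109.8 FPKM, a rise of 2.59 log2 (adjusted p = 0.00607). Ciita, the factor that switches class II genes on, went from 0.136, 0.404 and 0.443 to 2.74, 1.94 and 1.82 FPKM, a rise of 1.25 log2 (adjusted p = 0.00676). The order of the cryo-thermal tumours was the same in these 3 genes, with tumour 1 the highest and tumour 3 the lowest. Dendritic cell genes rose in 5 of 12 tested, with a median of 0.71 log2, and without cryo-thermal tumour 1 in 1 of 12 and without cryoablation tumour 1 or cryo-thermal tumour 2 in 2; the summed level of 6 dendritic cell markers was 1.486 to 1.757 FPKM after cryoablation and 1.928 to 5.796 FPKM after cryo-thermal treatment.

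**Figure D3:**
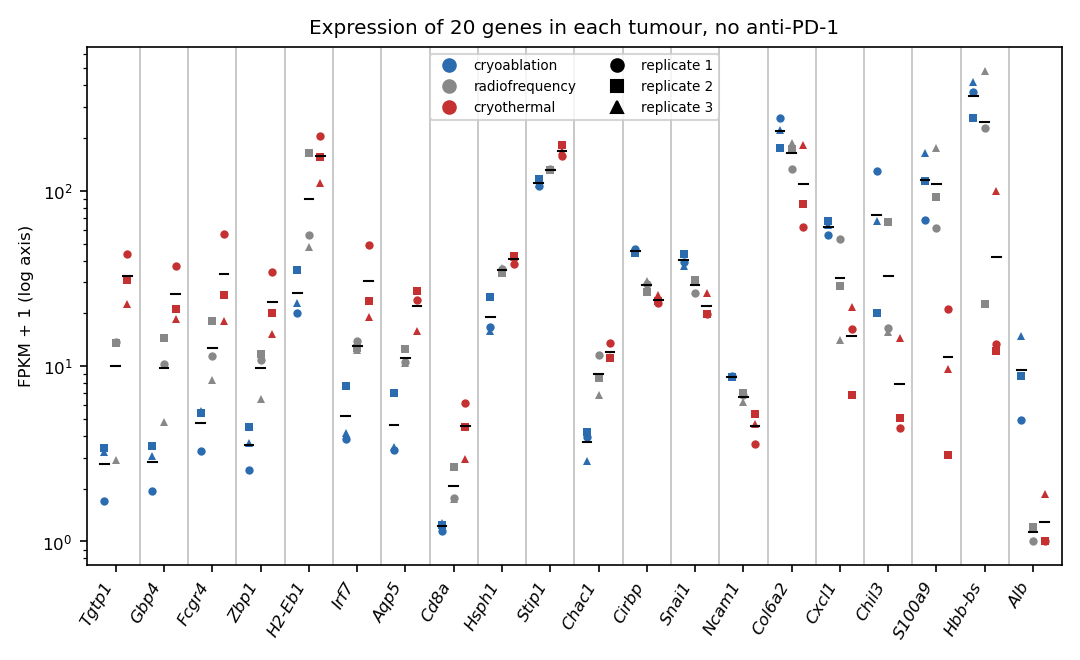
FPKM + 1 of 20 genes described in the text, on a log axis, in each of the 9 tumours without anti-PD-1; colours are the ablation, shapes the tumour number and bars the mean of each group. Genes of the interferon response and antigen presentation are higher in all 3 cryo-thermal tumours, such as Tgtp1 with 21.7 FPKM or more against at most 2.41, and haemoglobin, calprotectin and Chil3 transcripts are lower.

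T cell transcripts were higher in the cryo-thermal tumours. Of the T cell receptor complex and its co-receptors 12 of 13 genes tested rose, with a median of 1.36 log2. Cd3g, a signalling chain of the receptor complex, had 0.817, 1.06 and 0.826 FPKM after cryoablation and 11.2, 6.65 and 3.28 FPKM after cryo-thermal treatment, a rise of 1.96 log2 (adjusted p = 0.00754). Cd8a, the co-receptor of cytotoxic T cells, went from 0.15, 0.246 and 0.278 to 5.20, 3.48 and 1.95 FPKM, a rise of 1.83 ± 0.34 log2 (adjusted p = 0.00561). Cd4, found on helper T cells and on some myeloid cells, went from 0.0978, 0.237 and 0.183 to 1.81, 1.11 and 0.37 FPKM, a rise of 0.78 log2 (adjusted p = 0.0282) that was no longer called without cryoablation tumour 1, 2 or 3 or cryo-thermal tumour 1 or 2 (adjusted p = 0.0501 to 0.147). All 3 were low in every cryoablation tumour, and in the cryo-thermal group they were highest in tumour 1 and lowest in tumour 3. Without cryo-thermal tumour 1 the list had 5 of 13 genes past the test, without cryoablation tumour 1 or cryo-thermal tumour 2 it had 6, and without cryoablation tumour 2 or 3 it had 7. In whole tumours a change in the number of cells of a type and a change in RNA per cell cannot be told apart.

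The summed level of 5 T cell markers was 1.185 to 2.106 FPKM after cryoablation and 25.7, 15.84 and 8.252 FPKM after cryo-thermal treatment, and 5 of the 5 rose. Of 3 NK cell markers 1 rose of 2 tested, with sums of 0.5382 to 1.103 FPKM and 1.422 to 3.436 FPKM. Of 5 B and plasma cell markers 1 was tested and rose, with sums of 0.1195 to 0.5135 FPKM and 1.011 to 5.644 FPKM. The part of these markers in the interferon and MHC changes was not tested.

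Cytotoxic effectors rose in 10 of 14 genes tested, with a median of 1.18 log2, and without cryoablation tumour 1 or cryo-thermal tumour 1 in 5. Nkg7, a granule protein of killer cells, had 1.32, 1.24 and 1.04 FPKM after cryoablation and 14.0, 6.83 and 6.10 FPKM after cryo-thermal treatment, a rise of 2.10 ± 0.37 log2 (adjusted p = 0.00545). Gzmb, the protease that starts death in target cells, went from 3.35, 3.04 and 6.16 to 19.0, 11.3 and 12.6 FPKM, a rise of 1.58 log2 (adjusted p = 0.035) that was no longer called without cryoablation tumour 1 or 2 or cryo-thermal tumour 1 or 2 (adjusted p = 0.0704 to 0.144). Prf1, which forms the pores for granzymes, had 1.70, 1.45 and 2.92 and 6.67, 4.23 and 4.58 FPKM and did not pass the test (adjusted p = 0.0778), although its groups did not overlap. Checkpoint receptors and ligands rose in 7 of 18 genes, with a median of 0.59 log2, in 3 without cryoablation tumour 1 or cryo-thermal tumour 1, and in 11 without cryo-thermal tumour 3. Pdcd1, which encodes PD-1, went from 0.135, 0.261 and 0.205 to 3.89, 2.08 and 1.19 FPKM, a rise of 1.42 log2 (adjusted p = 0.00656). Cd274, which encodes the PD-1 ligand and is itself an interferon-gamma target, went from 2.21, 3.59 and 3.26 to 19.0, 9.83 and 8.59 FPKM, a rise of 1.68 log2 (adjusted p = 0.00983); it was no longer called without cryoablation tumour 1 or cryo-thermal tumour 1 (adjusted p = 0.0522 and 0.0581). Both the receptor and its ligand were thus higher in all 3 cryo-thermal tumours.

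Chemokines changed in both directions. Of 14 CXC and other chemokines 3 rose and 3 fell, of 17 CC chemokines 4 rose, and of 10 chemokine receptors 4 rose. Without cryo-thermal tumour 1 the 3 counts of rises were 1 each, as they were without cryo-thermal tumour 2 except for 2 receptors, and without cryoablation tumour 1 except for 2 CC chemokines. Of the 3 falls 1 was called without cryoablation tumour 1 or 2 or cryo-thermal tumour 2. Cxcl10, a ligand of CXCR3 that draws T cells and is usually induced by interferon-gamma, had 176, 141 and 189.6 FPKM after cryoablation and 39.0, 77.7 and 73.9 FPKM after cryo-thermal treatment, and fell by 1.45 log2 (adjusted p = 0.0356). Cxcl9, another ligand of the same receptor, went the other way, from 2.67, 4.75 and 5.58 to 12.0, 13.2 and 17.2 FPKM, a rise of 1.53 log2 (adjusted p = 0.0445). Cxcr3, their receptor, was near 0 in the cryoablation tumours at 0.0324, 0.0989 and 0.213 FPKM and had 1.82, 1.16 and 0.358 FPKM after cryo-thermal treatment, a rise of 0.86 log2 (adjusted p = 0.0123). Calls were lost without cryoablation tumour 1, 2 or 3 or cryo-thermal tumour 1 or 2 (adjusted p = 0.0534 to 0.164) for Cxcl10, without cryoablation tumour 1 or cryo-thermal tumour 1 or 2 (adjusted p = 0.0538 to 0.0692) for Cxcr3, and without any single tumour of the 6 for Cxcl9 (adjusted p = 0.0683 to 0.169). Cxcl1, which draws neutrophils, fell by 2.21 ± 0.46 log2, from 54.8, 66.7 and 63.0 to 15.3, 5.87 and 20.6 FPKM (adjusted p = 0.00833), with the groups well apart. Ccl8, which draws monocytes and T cells, had 22.4, 21.4 and 33.5 and 202, 79.6 and 40.1 FPKM, a rise of 1.74 log2 (adjusted p = 0.023). Its highest value was that of cryo-thermal tumour 1; without that tumour the change was 1.13 log2 (adjusted p = 0.118), and it was also lost without cryoablation tumour 1 or 2 or cryo-thermal tumour 2 (adjusted p = 0.0615 to 0.0855). Leukocyte integrins and adhesion molecules rose in 7 of 11 genes, with a median of 0.87 log2, and in 2 without cryo-thermal tumour 1, 3 without cryoablation tumour 1 and 4 without cryo-thermal tumour 2.

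Among myeloid genes the changes were mixed. Of 20 macrophage genes 5 rose and 2 fell, with a median of 0.34 log2, but 1 rose without any single tumour other than cryo-thermal tumour 3. The summed level of 6 macrophage markers was 380.1 to 465.6 FPKM after cryoablation and 553.6 to 948.0 FPKM after cryo-thermal treatment. Fcgr4, an activating receptor for IgG on macrophages and monocytes, had 2.30, 4.39 and 4.54 FPKM after cryoablation and 55.5, 24.4 and 17.1 FPKM after cryo-thermal treatment, a rise of 2.68 ± 0.52 log2 (adjusted p = 0.00633), and was 1 of 2 Fc receptors of 8 that rose. Cd163, the haemoglobin scavenger receptor of macrophages, went the other way, from 4.45, 1.58 and 3.44 to 0.17, 0.213 and 0.733 FPKM, and fell by 1.55 log2 (adjusted p = 0.017); it was no longer called without cryoablation tumour 1 or 3 or cryo-thermal tumour 1 or 2 (adjusted p = 0.0574 to 0.084). Complement genes rose in 11 of 17 tested, with a median of 0.77 log2, but in 1 of 17 without cryo-thermal tumour 1, in 3 without cryoablation tumour 1, in 4 without cryoablation tumour 2 or cryo-thermal tumour 2 and in 7 without cryoablation tumour 3. C1qa, a chain of the first complement component made by macrophages, had 134, 116 and 127 and 298, 206 and 160.3 FPKM, a rise of 0.77 log2 (adjusted p = 0.0347) that was no longer called without cryoablation tumour 1, 2 or 3 or cryo-thermal tumour 1 or 2 (adjusted p = 0.0787 to 0.173).

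Enzymes of tryptophan, arginine and nitric oxide metabolism rose in 6 of 13 genes tested, and in 3 without cryo-thermal tumour 1. Ido1, the interferon-induced enzyme that breaks down tryptophan, had 0, 0.133 and 0.133 FPKM after cryoablation and 5.15, 3.36 and 3.03 FPKM after cryo-thermal treatment, a rise of 2.13 ± 0.43 log2 (adjusted p = 0.00754). Ass1, which remakes arginine from citrulline, went from 2.74, 4.21 and 4.97 to 20, 15.0 and 9.52 FPKM, a rise of 1.64 log2 (adjusted p = 0.00647). Serpina3f, a protease inhibitor of a cluster of near-identical genes, went from 0.524, 0.95 and 1.57 to 19.4, 12.8 and 10.5 FPKM, a rise of 2.91 log2 (adjusted p = 0.011); it was no longer called without cryoablation tumour 1 or cryo-thermal tumour 1 (adjusted p = 0.0543 and 0.0582). Serpina3f had the largest rise in the list of the Serpina3 cluster and Ubd, where 2 of 5 genes tested rose and 1 fell. Without cryoablation tumour 1 or cryo-thermal tumour 1 none of that list rose. In Ido1, Ass1 and Serpina3f all cryo-thermal tumours were above all cryoablation tumours.

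**Figure D4:**
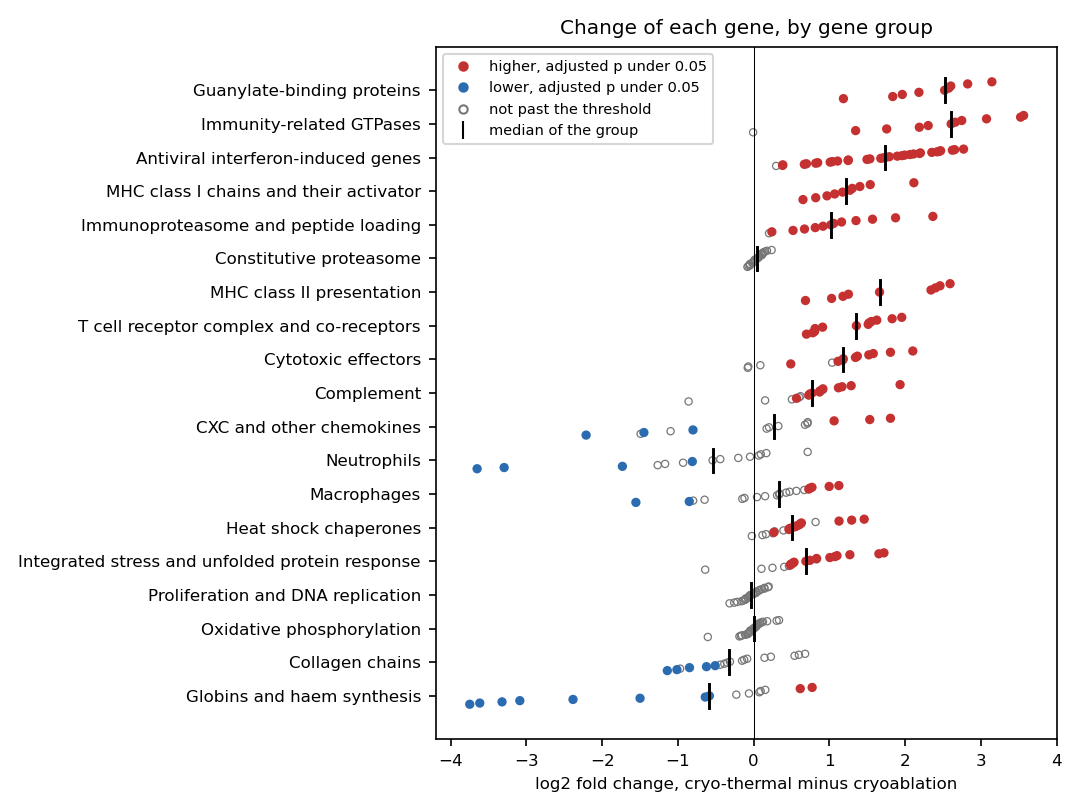
Change after cryo-thermal treatment relative to cryoablation, as the difference of mean log2(FPKM + 1), for every tested gene of each list; each dot is 1 gene, and colours mark genes past the test. All genes of the guanylate-binding protein and both MHC chain lists lie above 0, while dots of the constitutive proteasome, oxidative phosphorylation and proliferation lists gather around 0. Bars mark the median of each list.

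Genes of stress programmes were also higher. Heat shock chaperones, which refold proteins and are controlled by HSF1, rose in 12 of 19 genes tested, with a median of 0.51 log2. Stip1, which hands clients from HSP70 to HSP90, had 105, 116 and 108 FPKM after cryoablation and 158, 181 and 168 FPKM after cryo-thermal treatment, a rise of 0.62 ± 0.07 log2 (adjusted p = 0.00163). The change was small beside those of the interferon genes, but the spread within each group was smaller still. Hsph1, an exchange factor of HSP70, went from 15.7, 23.8 and 14.9 to 37.3, 41.6 and 41.1 FPKM, a rise of 1.13 log2 (adjusted p = 0.00425). Hspa8, the constitutive HSP70, went from 1026, 1094 and 1030.0 to 1414, 1511 and 1426 FPKM, a rise of 0.47 log2 (adjusted p = 0.0041). Hspe1, the mitochondrial co-chaperonin whose promoter is printed above, rose by 0.63 log2 (adjusted p = 0.00656), Hsp90aa1 by 0.60 log2 (adjusted p = 0.00545), Serpinh1, the chaperone of collagen, by 0.55 log2 (adjusted p = 0.00433), and Fkbp4, an HSP90 co-chaperone, by 0.58 log2 (adjusted p = 0.00433). In Stip1, Hsph1 and Hspa8 cryo-thermal tumour 1 was the lowest of its group.

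Of 19 genes of the integrated stress and unfolded protein response 13 rose, with a median of 0.69 log2, and without cryo-thermal tumour 1 the count was 7. Chac1, which degrades glutathione, had 2.96, 3.19 and 1.87 FPKM after cryoablation and 12.6, 10.1 and 10.3 FPKM after cryo-thermal treatment, a rise of 1.72 ± 0.32 log2 (adjusted p = 0.00562). Trib3, a pseudokinase that feeds back on ATF4, went from 6.55, 8.61 and 4.34 to 20.1, 24.1 and 21.7 FPKM, a rise of 1.65 log2 (adjusted p = 0.00656). Asns, the asparagine synthetase, went from 22.5, 25.5 and 21.1 to 44.5, 47.3 and 34.2 FPKM, a rise of 0.83 log2 (adjusted p = 0.00555). All 3 were separate between the groups. Atf3, a factor induced by ATF4, rose by 1.07 log2 (adjusted p = 0.00821), and Atf4 itself by 0.53 log2 (adjusted p = 0.00922), which was no longer called without cryo-thermal tumour 1 (adjusted p = 0.0539). Of 17 cold-inducible and clock genes 1 rose and 2 fell. Cirbp, an RNA-binding protein induced by mild cold, fell by 0.92 ± 0.10 log2, from 45.3, 42.9 and 44.1 to 21.8, 22.7 and 24.3 FPKM (adjusted p = 0.00163), with little spread in either group.

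Red cell and liver transcripts fell. Of 15 genes of globins and haem synthesis 8 fell and 2 rose, with a median of -0.58 log2. Hbb-bs, an adult beta globin, had 365, 258 and 418 FPKM after cryoablation and 12.3, 11.2 and 99.3 FPKM after cryo-thermal treatment, and fell by 3.75 ± 0.94 log2 (adjusted p = 0.0178). Alas2, the first haem enzyme of red cell precursors, had 9.49, 6.59 and 11.8 and 0.253, 0.562 and 2.64 FPKM and fell by 2.38 log2 (adjusted p = 0.0178). Hbb-bt fell by 3.62 log2 (adjusted p = 0.0152), Hba-a1 by 3.09 log2 (adjusted p = 0.0424) and Hba-a2 by 3.32 log2 (adjusted p = 0.0273). In each of these genes the 3 cryoablation tumours were close together, and cryo-thermal tumour 3 was several times above the other two cryo-thermal tumours. These calls were lost without cryoablation tumour 1 or 3 or cryo-thermal tumour 1 or 2 (adjusted p = 0.0571 to 0.089) for Hbb-bs, without cryoablation tumour 1 or 3 or cryo-thermal tumour 1 or 2 (adjusted p = 0.0617 to 0.0905) for Alas2, without cryoablation tumour 1 or cryo-thermal tumour 1 or 2 (adjusted p = 0.0575 to 0.0797) for Hbb-bt, without cryoablation tumour 1, 2 or 3 or cryo-thermal tumour 1 or 2 (adjusted p = 0.0753 to 0.173) for Hba-a1, and without cryoablation tumour 1, 2 or 3 or cryo-thermal tumour 1 or 2 (adjusted p = 0.0544 to 0.115) for Hba-a2. Of the list, 2 genes fell without cryoablation tumour 1, cryo-thermal tumour 1 or cryo-thermal tumour 2, and 3 without cryoablation tumour 3. The alpha globin genes are copies of each other, as are the beta globin genes, so their shared reads cannot be assigned with certainty.

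The summed level of 5 red cell markers was 557.5 to 772.0 FPKM after cryoablation and 39.39, 23.56 and 210.4 FPKM after cryo-thermal treatment, and 5 of the 5 fell. The part of blood in the other changes was not tested. The model with the mean log2 level of these 5 markers as a covariate cannot separate blood from treatment, since the red cell sums did not overlap between the groups. Of 5 liver secreted proteins 3 fell. Alb, serum albumin, had 3.93, 7.75 and 13.8 FPKM after cryoablation and 0, 0.0126 and 0.878 FPKM after cryo-thermal treatment, and fell by 2.80 ± 0.52 log2 (adjusted p = 0.00562). Apoa1, the main protein of high-density lipoprotein, had 1.00, 3.52 and 3.50 and 0, 0 and 0.186 FPKM (change -1.70 log2, adjusted p = 0.00922), and Mup3, a urinary protein from a family of near-identical genes, had 1.31, 2.67 and 3.50 and 0, 0 and 0.259 FPKM (change -1.64 log2, adjusted p = 0.009). These liver transcripts were low in all tumours and highest in cryoablation tumours 2 and 3. Together 4 liver markers had 7.23 to 22.94 FPKM after cryoablation and 0.5087 to 1.824 FPKM after cryo-thermal treatment. How liver and red cell RNA came to be in the tumour samples was not tested.

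Neutrophil transcripts fell for some members. Of 15 neutrophil genes 4 fell, with a median of -0.54 log2, and none of the 4 was called without cryoablation tumour 3 or without cryo-thermal tumour 2. S100a9, a subunit of calprotectin, the most abundant protein of neutrophils, had 67.2, 112 and 163 FPKM after cryoablation and 20.2, 2.13 and 8.61 FPKM after cryo-thermal treatment, and fell by 3.65 ± 0.89 log2 (adjusted p = 0.0156). S100a8, its partner, had 34.8, 76.8 and 91.2 and 12.6, 1.59 and 6.76 FPKM and fell by 3.29 log2 (adjusted p = 0.0217). Retnlg, a secreted protein of mature neutrophils, had 4.25, 3.45 and 8.25 and 2.09, 0.512 and 0.259 FPKM and fell by 1.73 log2 (adjusted p = 0.0434). The groups did not overlap in these genes, but the spread within them was wide, and calls were lost without cryoablation tumour 3 or cryo-thermal tumour 2 (adjusted p = 0.0575 and 0.0776) for S100a9, without cryoablation tumour 2 or 3 or cryo-thermal tumour 2 (adjusted p = 0.0561 to 0.101) for S100a8, and without any single tumour of the 6 for Retnlg (adjusted p = 0.0547 to 0.147). Together 5 neutrophil markers had a summed level of 103.4 to 257.5 FPKM after cryoablation and 4.645 to 36.9 FPKM after cryo-thermal treatment. Most of this sum was S100a9 and S100a8, whose values are given above. Of the 5 markers 3 were tested, and the 2 that passed were S100a9 and S100a8. Chil3, a chitinase-like protein of alternatively activated macrophages and neutrophils, had 129, 19.2 and 66.0 FPKM after cryoablation and 3.43, 4.05 and 13.4 FPKM after cryo-thermal treatment, and fell by 3.03 ± 0.69 log2 (adjusted p = 0.0117). Its call was lost without cryoablation tumour 1 or cryo-thermal tumour 1 or 2 (adjusted p = 0.0517 to 0.0645). Most members of the lists that hold Chil3 did not fall. Among 11 alternatively activated myeloid genes tested 2 fell and 0 rose, with a median of 0.15 log2. Among 12 monocyte genes 4 rose and 1 fell, with a median of 0.06 log2.

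Matrix and mesenchymal genes fell in part. Of 18 collagen chains 5 fell, with a median of -0.33 log2, and of 20 fibroblast and matrix genes 3 fell, with a median of 0.12 log2. Col18a1, a collagen of basement membranes, had 59.8, 57.7 and 66.1 FPKM after cryoablation and 23.3, 36.7 and 44.0 FPKM after cryo-thermal treatment, and fell by 0.85 log2 (adjusted p = 0.00987), which was no longer called when only the 2 groups compared were fitted (adjusted p = 0.0511). Col6a2, a chain of the microfibrillar collagen VI, had 259, 176 and 222 and 61.2, 83.0 and 182 FPKM and fell by 1.14 log2 (adjusted p = 0.022). The groups of Col6a2 overlapped, since cryo-thermal tumour 3 was above cryoablation tumour 2, and its call was lost without cryoablation tumour 1 or 3 or cryo-thermal tumour 1 or 2 (adjusted p = 0.0622 to 0.121). When 1 of cryoablation tumours 1 and 3 or cryo-thermal tumours 1 and 2 was left out, 1 of the 18 collagen chains fell, and of the fibroblast and matrix genes 1 fell, or 0 without cryo-thermal tumour 1. Together 4 fibroblast markers had 620.2 to 853.5 FPKM after cryoablation and 399.4 to 708.2 FPKM after cryo-thermal treatment, which overlap.

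Of 10 genes of the mesenchymal transition 3 fell, with a median of -0.04 log2, and Vim was not among the 3. Ncam1, Pdgfc and Nrep, given below, are not members of this list. Snai1, a repressor of epithelial genes, had 38.3, 42.7 and 36.4 FPKM after cryoablation and 18.8, 18.7 and 25.2 FPKM after cryo-thermal treatment, and fell by 0.88 ± 0.12 log2 (adjusted p = 0.0041). Ncam1, a neural cell adhesion molecule, had 7.73, 7.67 and 7.64 and 2.59, 4.31 and 3.69 FPKM and fell by 0.96 log2 (adjusted p = 0.0041). Pdgfc, a growth factor for mesenchymal cells, had 13.7, 10.2 and 12.7 and 4.54, 4.60 and 5.82 FPKM and fell by 1.13 log2 (adjusted p = 0.00433). In Snai1, Ncam1 and Pdgfc every cryo-thermal tumour was below every cryoablation tumour. Prrx2, a homeobox factor of mesenchyme, fell by 0.74 log2 (adjusted p = 0.00433), and Nrep, a neuronal regeneration-related protein, by 1.83 log2 (adjusted p = 0.0174), which was lost without cryoablation tumour 1 or 3 or cryo-thermal tumour 1 or 2 (adjusted p = 0.0518 to 0.0947). Without cryoablation tumour 1 or cryo-thermal tumour 1 or 2 the number of genes of the mesenchymal transition list that fell was 1.

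Further genes were named because their p-values were among the smallest. Aqp5, a water channel of glands and airways, had 2.31, 6.07 and 2.47 FPKM after cryoablation and 22.8, 25.7 and 14.9 FPKM after cryo-thermal treatment, a rise of 2.32 ± 0.30 log2 (adjusted p = 0.0041). Kcnk5, an acid-sensitive potassium channel, had 0.654, 0.799 and 0.619 and 1.74, 1.79 and 1.85 FPKM, a rise of 0.73 log2 (adjusted p = 0.0041). Ccnd2, a cyclin of the G1 phase, had 3.25, 5.32 and 3.49 and 9.58, 10.3 and 8.17 FPKM, a rise of 1.06 log2 (adjusted p = 0.00425). These 3 changes did not follow the order of the interferon genes, since cryo-thermal tumour 1 was not the highest of its group in any of them. Among the falls, Ube2e2, a ubiquitin-conjugating enzyme, had 14.0, 13.4 and 14.1 and 8.65, 8.02 and 9.63 FPKM (change -0.61 log2, adjusted p = 0.0041). Fut8, which adds the core fucose to glycans, had 17.7, 16.7 and 17.7 and 11.1, 11.9 and 11.2 FPKM (change -0.57 log2, adjusted p = 0.00421). Micu2, a gatekeeper of mitochondrial calcium uptake, changed by -0.36 log2 (adjusted p = 0.0041), Atp2b4, a calcium pump of the plasma membrane, by -0.97 log2 (adjusted p = 0.00433), and Tfdp2, a partner of E2F factors, by -0.53 log2 (adjusted p = 0.00433). All of these falls were seen in 3 of 3 cryo-thermal tumours without overlap.

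In several groups few or no genes passed the test, which does not show that they were unchanged. None of 25 proliferation and DNA replication genes, 32 genes of oxidative phosphorylation, 18 of cholesterol synthesis or 17 of the endothelium passed the test, and 1 of 47 cytosolic ribosomal proteins and 1 of 24 hypoxia and glycolysis genes rose. Their medians were -0.04, 0.00, -0.02, 0.28, 0.02 and 0.23 log2. Mki67, a marker of cycling cells, had 56.7, 54.7 and 62.5 FPKM after cryoablation and 52.9, 57.1 and 51.4 FPKM after cryo-thermal treatment, and its groups overlapped. Without cryoablation tumour 2 the number of hypoxia and glycolysis genes that rose was 9. Changes were positive in 15 of 17 endothelial genes and in 8 of 8 adipocyte genes, which had a median of 0.43 log2. The cryo-thermal tumours were higher without overlap in 6 of these endothelial and 4 of these adipocyte genes, against 17.7% of all genes tested. None of 13 skin and 8 adipocyte genes passed and 2 of 14 skeletal muscle genes rose, with muscle marker sums of 10.34 to 13.9 FPKM after cryoablation and 9.999 to 46.16 FPKM after cryo-thermal treatment, the highest in cryo-thermal tumour 2.

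The same comparison was made in the 6 tumours whose mice also received anti-PD-1, which share no tumour with the comparison above. There 408 genes (3.24%) were higher and 103 (0.818%) were lower after cryo-thermal treatment, or 4.06% in either direction. Of the higher genes 195 were higher in both comparisons, which is 19.3% of those without antibody and 47.8% of those with it. Of the lower genes 26 were lower in both, which is 2.97% of those without antibody and 25.2% of those with it. For the 1008 genes higher without antibody the median change with antibody was 0.29 log2, against 0.58 log2 without, and 887 had the same sign. For the 876 lower genes it was -0.10 log2 against -0.40 log2, and 653 had the same sign. The count with antibody also rested on single tumours, and without cryoablation tumour 2 or 3 of that set it was 2, without cryo-thermal tumour 2 it was 3, without cryo-thermal tumour 3 it was 17, and without cryoablation tumour 1 it was 1052. A call in one comparison and not in the other does not show that they differ.

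The gene groups differed in how far they moved with antibody, by their own values side by side. Guanylate-binding proteins had a median change of 1.84 log2 with antibody, with 6 of 9 past the test, and immunity-related GTPases 2.02 log2, with 7 of 11. Cytotoxic effectors had 1.46 log2, with 11 of 14 past the test, and the immunoproteasome and peptide loading list 1.14 log2, with 9 of 13. Antiviral genes had 0.62 log2, with 3 of 32 past the test, against 1.73 log2 and 31 of 32 without antibody. Cryoablation tumour 1 with antibody stood apart from its group in this list: the mean log2(FPKM + 1) was 3.587, 2.628 and 2.396 after cryoablation and 3.413, 3.515 and 3.535 after cryo-thermal treatment, so that tumour was above all 3 cryo-thermal tumours. Without it the median change of the antiviral genes with antibody was 1.03 log2, with 20 of 32 past the test, and that of the guanylate-binding proteins 2.37 log2, with 9 of 9. Without any 1 of cryoablation tumours 2 and 3 and cryo-thermal tumours 2 and 3 none of the genes of these 5 lists passed with antibody. Ifit3 changed by 0.61 log2 with antibody (adjusted p = 0.472), Isg15 by 0.66 log2 (adjusted p = 0.4) and Irf7 by 0.49 log2 (adjusted p = 0.535). Without cryoablation tumour 1 of that set the changes were 1.12, 1.24 and 1.03 log2 (adjusted p = 0.116, 0.037 and 0.0858). The difference between the comparisons did not pass for these 3 genes (interaction adjusted p = 0.171, 0.201 and 0.145), and no antiviral gene passed it. Heat shock chaperones had a median of 0.03 log2 with antibody and the integrated stress list -0.001 log2, with 0 genes of either list past the test, or 1 of the latter without cryoablation tumour 1 of that set. Of these lists no gene passed the interaction test either. The smallest interaction adjusted p was 0.0598 among the heat shock chaperones and 0.0783 in the integrated stress list. The nearest of those named were Hsph1 and Atf3 (adjusted p = 0.0783 and 0.0783).

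**Figure D5:**
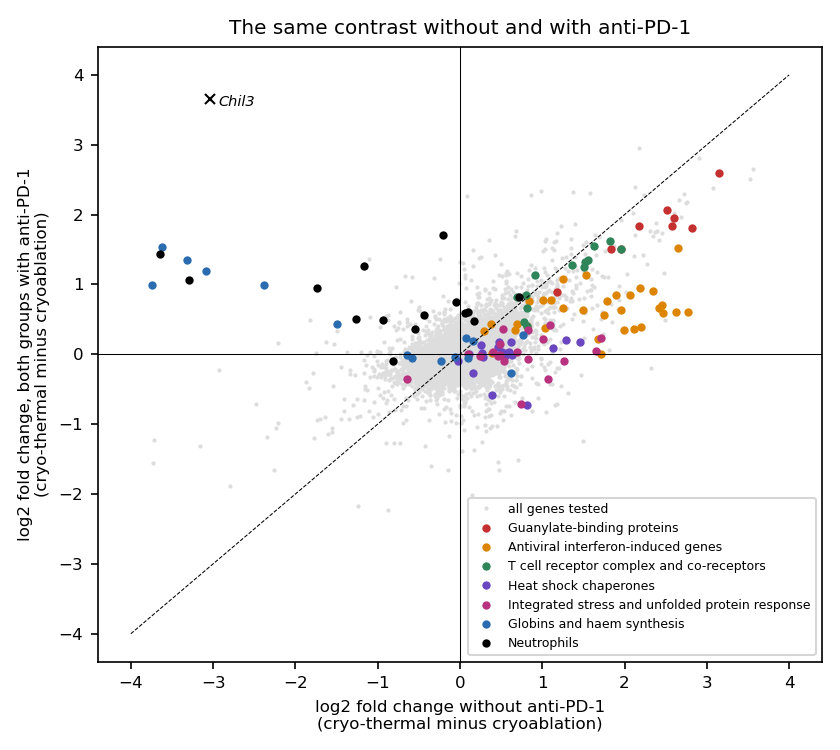
Change after cryo-thermal treatment relative to cryoablation without anti-PD-1 (horizontal axis) and with it (vertical axis), both as differences of mean log2(FPKM + 1), for the genes tested; grey points are all genes, coloured points the genes of 7 lists, and the dashed line marks equal change. Guanylate-binding proteins lie high on both axes, antiviral genes lie lower on the vertical axis, and Chil3 is at -3.03 without and 3.65 with antibody.

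The interaction test compared these changes directly, and 21 of 12587 genes (0.167%) passed, 7 with a larger value without antibody and 14 with a smaller one, while 1687 passed at an unadjusted p under 0.05. Chil3 had the largest difference among those named. With antibody it had 6.35, 6.74 and 5.24 FPKM after cryoablation and 43.2, 108 and 144 FPKM after cryo-thermal treatment, a rise of 3.65 log2 (adjusted p = 0.0167), opposite to its fall without antibody, and the interaction was -6.68 ± 0.97 log2 (adjusted p = 0.013). Aqp5 rose without antibody and changed by -0.20 log2 with it, from 12.9, 5.88 and 10.2 to 6.48, 7.49 and 10.3 FPKM, an interaction of 2.51 log2 (adjusted p = 0.0334). Rgs2, which dampens G protein signalling, rose by 0.46 log2 without antibody, called except without cryo-thermal tumour 1 (adjusted p = 0.0607), and changed by -0.60 log2 with it, an interaction of 1.05 log2 (adjusted p = 0.0103). Plxnb1, a semaphorin receptor, changed by -0.74 and 0.45 log2, an interaction of -1.19 log2 (adjusted p = 0.0103). For Chil3, Rgs2 and Plxnb1 both changes passed their own test, in opposite directions. With antibody these calls rested on single tumours: those of Chil3 (adjusted p = 0.083 to 0.101) and Rgs2 (adjusted p = 0.0705 to 0.0832) were lost without cryoablation tumour 2 or 3 or cryo-thermal tumour 2 or 3, and that of Plxnb1 without any 1 of the 6 tumours (adjusted p = 0.0715 to 0.146). The interaction of Chil3 was lost without cryoablation tumour 1 or 3 of the set without antibody or cryoablation tumour 3 of the set with it (adjusted p = 0.05 to 0.0583), and that of Aqp5 in 8 of 12 fits that left out 1 tumour (adjusted p = 0.0701 to 0.103). The interaction count was 0 without cryoablation tumour 3 of the set without antibody, with 1415 genes at an unadjusted p under 0.05, and 189 without cryo-thermal tumour 3 of that set.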

How the data were processed

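RNA of 18 mouse tumours, 3 in each of 6 groups, was sequenced. The authors deposited 1 table of FPKM values of 26538 genes, 18548 protein-coding and 7990 non-coding; the only tool named, per the submitters' processing notes, is HTSeq 0.11.2. Which aligner, build and annotation were used is not given in the sources used here. Column sums of FPKM over the 6 tumours compared were 412878 to 438212, and no 2 columns were identical. Depth was judged from the values: for 6272 of 8670 low genes (72.3%) all values were whole multiples of the value of 1 fragment within 0.05, which gave the relative depths but not the counts, so no count model was fitted.

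Genes with a mean FPKM of 0.5 or more over all 18 tumours were kept (12587), values were taken as log2(FPKM + 1), and 6 group means were fitted with limma 3.58.1 in R 4.3.3, with empirical Bayes moderation and a trend of variance with level, using all 18 tumours. The contrasts were cryo-thermal minus cryoablation without anti-PD-1, the same with anti-PD-1 in both, and their difference; p-values were adjusted by Benjamini-Hochberg over all genes tested. The model was tested on simulated data. An exact permutation test of 3 against 3 tumours cannot go below 0.1 (two-sided) and was not used. Genes were named by rule: the 15 largest rises and falls past the test with groups apart, the 10 smallest p-values in each direction, the 5 smallest interaction p-values in each direction, and members of gene lists. Predicted genes, clones and antigen receptor segments were left out under each of these rules except that of the gene lists. The members and lists were chosen with earlier results of these data known. Same-numbered tumours did not deviate together (correlations of -0.225, 0.156 and -0.278), so the fit has no replicate block; whether same-numbered tumours share a day or batch is not stated. Promoters came from RefSeq. Alternatives are given in the closing section. Tables were handled in pandas 2.3.3 and numpy 2.4.6 (Python 3.11.15), and figures drawn in matplotlib 3.10.9.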

Additional observations from a re-analysis of the deposited data

Results flagged for a closer look

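The genes below were set apart because the change after cryo-thermal treatment relative to cryoablation differed with and without anti-PD-1, by limma's interaction test at an adjusted p under 0.05; each value is the change without antibody minus the change with it, on the log2(FPKM + 1) scale, with 3 tumours in each of the 4 groups. With larger values without antibody, Aqp5 had an interaction of 2.51 log2 (adjusted p = 0.0334), from changes of 2.32 and -0.20. Cavin2, a protein of caveolae, had 1.42 log2 (adjusted p = 0.0103), from 0.37 and -1.06, and its change without antibody did not pass its own test (adjusted p = 0.0826). Rgs2 had 1.05 log2 (adjusted p = 0.0103), Bdnf, a growth factor of neurons, 0.99 log2 (adjusted p = 0.0493), and Mcc 0.81 log2 (adjusted p = 0.038). With smaller values without antibody, Chil3 had -6.68 log2 (adjusted p = 0.013), from a fall without antibody and a rise with it. Plxnb1 had -1.19 log2 (adjusted p = 0.0103) and Azin2, an inhibitor of antizyme, -1.15 log2 (adjusted p = 0.013), from -0.51 and 0.64. Cdh1, the epithelial cadherin, had -0.86 log2 (adjusted p = 0.0379), Dnajc22 -0.81 log2 (adjusted p = 0.02), Myo10, a myosin of filopodia, -0.75 log2 (adjusted p = 0.0254), and Fut8 -0.65 log2 (adjusted p = 0.0379). No other gene named in the text passed this test. In the 12 fits that left out 1 tumour, the call was lost in 10 for Bdnf, Mcc and Cdh1. It was lost in 9 for Fut8, 8 for Aqp5 and Myo10, and 7 for Dnajc22. Chil3 and Azin2 lost it in 3, Cavin2 and Plxnb1 in 2, and Rgs2 in 1.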

How the results depend on the processing

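The main comparison gave 1884 genes (1008 higher and 876 lower). Under 8 alternatives it stayed within 1.5 times of that: a pseudocount of 0.1 (1878), no filter (1296, 714 higher and 582 lower), a minimum of 1 FPKM (1744), values rescaled to equal column sums (1583), quantile normalization (1931, 893 higher and 1038 lower, against the split above), no variance trend (1888), a replicate block (1738, 939 higher and 799 lower) and without the skin-rich tumours (1907). The skin-rich tumours were cryoablation tumours 1 and 2 and cryo-thermal tumour 1 of the set with anti-PD-1. No tumour of the main comparison was left out there, so for that comparison only the estimate of the spread could change. Its count moved to 1037 when only the groups compared were fitted, to 5461 with array weights and to 0 with the erythroid level as a covariate (1572 at an unadjusted p under 0.05). Leaving out 1 tumour gave 460 to 2681. With anti-PD-1 in both groups the count of 511 moved to 180 with no filter, 0 when only the groups compared were fitted (2462 unadjusted), 4156 with array weights, 329 without the skin-rich tumours and 1049 with the erythroid covariate; leaving out 1 tumour gave 2 to 1052 and the replicate block 396. The interaction count of 21 moved to 2636 with array weights, 9 with the replicate block, 1 without the skin-rich tumours and 0 with the erythroid covariate (1334 unadjusted); leaving out 1 tumour gave 0 to 189. Under the covariate Hba-a1 had 0.50 log2 and Hba-a2 0.18 log2, which says nothing of these genes since both are among the 5 markers whose mean log2 level is the covariate. The cause of these moves was not tested, except that fewer tumours entered the leave-one-out and skin-rich fits. Of the 103 genes named, 99 passed the main comparison and 66 of these kept their call under all alternatives in which they were tested other than the erythroid covariate, under which none passed. No filter ended 14 calls, fitting only the groups compared 10, leaving out the skin-rich tumours 1 (Hba-a1, adjusted p = 0.0614), and the replicate block 2, those of C1qa (adjusted p = 0.0502) and Cxcl9 (adjusted p = 0.0618). The FPKM values carry no counts, so no counting intervals are given.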
